A study of Homo sapiens with 9 samples.

Results

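AP-1 is a family of dimeric transcription factors, and the 7 genes described here encode its core subunits: FOS, FOSB, FOSL1 and FOSL2 of the FOS family, and JUN, JUNB and JUND of the JUN family. They were read from the deposited count table by gene name, and they are 7 of its 37351 genes. RNA-Seq was carried out on LNCaP cells, a line derived from a human prostate cancer metastasis. The cells were held in medium without serum or calcium, given recombinant NRG1 (15 ng/mL), a ligand of the receptor HER3, and harvested after 0, 12 and 24 hours as 3 biological replicates per time. All 3 groups shared the line and the starvation, and no library from cells kept for 12 or 24 hours without NRG1 was analysed here, so NRG1 and time in the starvation medium cannot be told apart.

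FOS and JUN proteins carry a basic DNA-binding region and a leucine zipper through which they pair. JUN proteins can pair with each other or with a FOS protein, whereas FOS proteins need a JUN partner, so the makeup of the pool sets which dimers can form on the AP-1 site. FOS, FOSB, JUN and JUNB are classic immediate-early genes, switched on without new protein synthesis when growth factor receptors activate ERK, while FOSL1 and FOSL2 belong to the later response and JUND is made in most cells at rest.

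Total counts per library were 47016302 to 60985825, and the 0 hour libraries were the deepest (58267359 to 60985825). Values are CPM, read counts divided by a library size that was adjusted by TMM (the trimmed mean of M values) and brought to a common total, and a fold change is the one fitted by edgeR over all 19250 tested genes. A gene was called when its Benjamini-Hochberg adjusted p-value was at most 0.05 and its fold change at least 1.5. The 8 luminal prostate markers examined, KLK3 among them, were all at 1 CPM or more, and their summed level was 4919 to 4979 CPM at 0 hours, 4920.1 to 4971 CPM at 12 hours and 4753 to 4898 CPM at 24 hours. On the adjusted p alone, 3 were higher and 4 lower at 12 hours (10.6% and 8.16% of all tested genes). At 24 hours 2 were higher and 5 lower (11.6% and 9.48%). KLK3 rose by 0.42 and 0.25 on the log2 scale at 12 and 24 hours. SLC45A3, at 189.9, 142.5 and 111.5 CPM, was called lower at 24 hours (log2 fold change -0.77, edgeR adjusted p = 6.49e-19). The 9 fibroblast markers in the table summed to 26.2 to 30.5 CPM, most of it COL1A1 (24.6, 22.4 and 22.8 CPM at the 3 times), with DCN, FAP and COL1A2 at 0.0459 CPM or less at each time. COL3A1 was called higher at 12 and 24 hours, at 0.567, 1.13 and 1.43 CPM (log2 fold changes 0.98 and 1.32, edgeR adjusted p = 0.009 and 0.00032), and LUM, at 1.03, 1.42 and 1.52 CPM, passed the adjusted p at 24 hours (0.56, edgeR adjusted p = 0.0479). The 7 immune markers summed to 0.511 CPM or less, with PTPRC at 0.0378 CPM or less at each time. The 5 endothelial and basal markers in the table went from between 12.95 and 13.9 CPM at 0 hours to between 6.93 and 7.99 CPM at 24 hours, nearly all of it VWF, while TP63, KRT5 and PECAM1 were at 0.0282 CPM or less. The part of these shifts in the results below was not tested. In bulk libraries, more RNA per cell and more cells with that RNA cannot be told apart.

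The sequences upstream of FOS, JUNB and JUN are shown because these are the immediate-early members whose transcripts moved, the first pair upward and JUN downward. Each is the 250 bases before the RefSeq transcript start (GRCh38.p14), written 5′ to 3′ on the strand of the gene. FOS is read from chr14:75278578-75278827 on the plus strand, JUNB from chr19:12791236-12791485 on the plus strand and JUN from chr1:58784048-58784297 on the minus strand. Capitals mark the matches described below them.
FOS: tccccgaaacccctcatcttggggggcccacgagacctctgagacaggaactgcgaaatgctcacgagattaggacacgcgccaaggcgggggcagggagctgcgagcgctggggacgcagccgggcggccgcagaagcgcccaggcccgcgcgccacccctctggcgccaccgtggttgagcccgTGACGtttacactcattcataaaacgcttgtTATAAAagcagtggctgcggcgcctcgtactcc
JUNB: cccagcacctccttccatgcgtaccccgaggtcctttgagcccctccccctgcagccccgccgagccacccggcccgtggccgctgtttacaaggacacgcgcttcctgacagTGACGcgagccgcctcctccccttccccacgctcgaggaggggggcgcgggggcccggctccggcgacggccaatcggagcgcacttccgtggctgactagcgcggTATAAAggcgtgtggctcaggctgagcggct
JUN: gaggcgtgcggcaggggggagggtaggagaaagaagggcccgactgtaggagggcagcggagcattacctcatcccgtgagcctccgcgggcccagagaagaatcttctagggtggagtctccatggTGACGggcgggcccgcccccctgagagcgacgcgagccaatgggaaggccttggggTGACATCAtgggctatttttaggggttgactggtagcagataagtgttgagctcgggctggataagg

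The core of the cyclic AMP response element (TGACG) was present upstream of all 6 subunit genes that had a promoter sequence, against 21.2% of 35116 promoters of the same length. These 6 windows were 62.0% to 74.8% G or C, against a median of 58.0% over all promoters. The part of base composition in the matches was not tested. FOS carried the core at positions -64 to -60 from the start, FOSB at -60 to -56 and JUNB at -137 to -133. JUND held the full element (TGACGTCA, 1.65% of promoters), which contains the core on both strands. The JUN promoter held TGACATCA, a variant AP-1 site present in 2.37% of promoters, at positions -67 to -60. The TATA box TATAAA was found upstream of FOS, FOSB and JUNB and in 10.7% of promoters. The consensus AP-1 site (TGAGTCA, 4.20% of promoters), the CArG box (1.16%), the ETS site CCGGAAGT (3.42%) and the EGR site GCGNGGGCG (8.41%) had no match in the 6 windows, which says only that these letters are not in them. All motifs were searched on both strands.

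**Figure D1:**
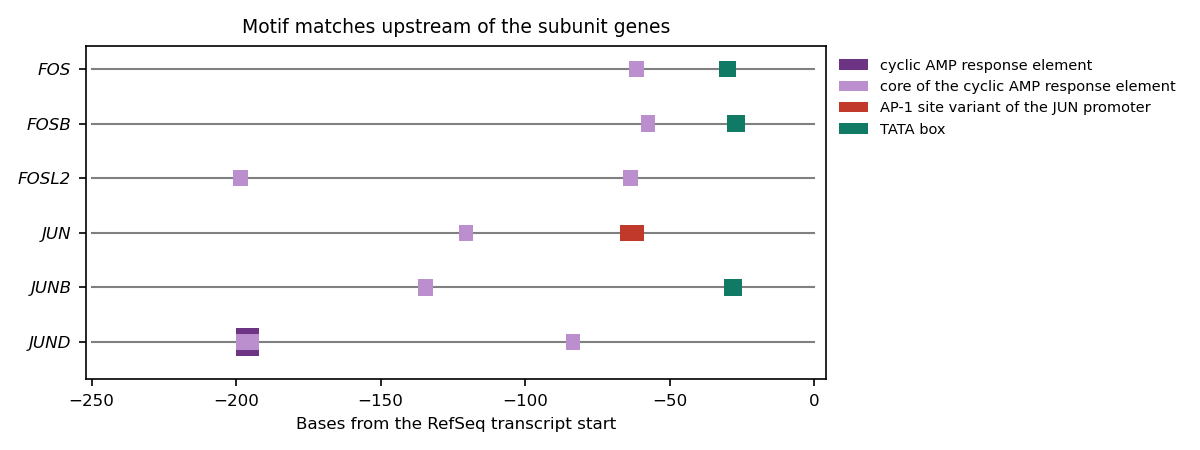
Motif matches in the 250 bases upstream of 6 subunit genes, with position in bases from the RefSeq transcript start on the horizontal axis and one line per gene. Colours stand for the motif, and the core of the cyclic AMP response element lies on every line.

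FOS (ENSG00000170345.10, GRCh38 chr14:75278826-75282230, plus strand) rose most of the 7 genes. It encodes the founding FOS protein, whose transcript is classically made in a short burst. The 0 hour libraries held 1.61, 1.14 and 1.47 CPM, the 12 hour libraries 29.9, 27.8 and 28.2 CPM, and the 24 hour libraries 36.8, 32.5 and 35.0 CPM. The 3 times did not overlap, and FOS was highest at 24 hours. In reads, this was 100, 66 and 86 at 0 hours against 1612, 1469 and 1366 at 12 hours and 1725, 1765 and 1825 at 24 hours. FOS was 20.2-fold higher at 12 hours than at 0 hours (log2 fold change 4.34, SE 0.088, edgeR adjusted p = 1.11e-29) and 24.5-fold higher at 24 hours (4.62, SE 0.087, edgeR adjusted p = 1.25e-30). These were the ninth and the eighth largest fitted rises among all tested genes. Between 12 and 24 hours it gained a further 0.28 on the log2 scale (SE 0.058, edgeR adjusted p = 0.00199).

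FOSL1 (ENSG00000175592.9, chr11:65892049-65900573, minus strand), which encodes FRA-1, a FOS protein without the C-terminal activation domain of FOS, was the scarcest subunit at 0 hours. Its read counts were 16, 4 and 10 at 0 hours, 46, 56 and 38 at 12 hours and 50, 51 and 61 at 24 hours. Every later library was above every 0 hour library, and the 12 and 24 hour libraries overlapped. Its level was 0.166 ± 0.0947, 0.899 ± 0.143 and 1.06 ± 0.117 CPM at the 3 times (SD, n = 3 each). The fitted increase was 5.31-fold at 12 hours (log2 fold change 2.41, SE 0.35, edgeR adjusted p = 3.06e-06) and 6.24-fold at 24 hours (2.64, SE 0.35, edgeR adjusted p = 3.22e-07). FOSL1 was tested only because its 12 and 24 hour libraries passed the filter on low counts, which 1 of its 3 libraries at 0 hours reached. Its calls are therefore not independent of the filter.

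FOSB (ENSG00000125740.14, chr19:45467995-45475179, plus strand), an immediate-early FOS protein best known from neurons, did not pass the test. The libraries held 2.02, 2.33 and 1.47 CPM at 0 hours, 2.17, 2.74 and 2.50 CPM at 12 hours and 2.11, 2.41 and 3.21 CPM at 24 hours, and the 3 times overlapped. Its log2 fold change was 0.35 at 12 hours (SE 0.18, edgeR adjusted p = 0.197) and 0.41 at 24 hours (SE 0.18, edgeR adjusted p = 0.107). Without the second 0 hour replicate the 24 hour value was 0.56 with an edgeR adjusted p of 0.0449. FOSB lies inside the span of ERCC1 on the other strand. The genes share no exon bases, and ERCC1, whose log2 fold change was -0.098 at 12 hours and -0.049 at 24 hours, did not pass either comparison.

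FOSL2 (ENSG00000075426.12, chr2:28392448-28417317, plus strand) encodes FRA-2 and was the main FOS family transcript before NRG1. It was measured at 38.8, 42.2 and 37.5 CPM at 0 hours, at 32.3, 33.4 and 31.2 CPM at 12 hours and at 34.3, 32.9 and 33.5 CPM at 24 hours. All later libraries were below all 0 hour libraries, while 12 and 24 hours overlapped. FOSL2 fell by 0.29 on the log2 scale at 12 hours (SE 0.048, edgeR adjusted p = 2.17e-05) and by 0.24 at 24 hours (SE 0.048, edgeR adjusted p = 0.000312), changes smaller than the fold threshold.

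Among the JUN genes, JUNB (ENSG00000171223.6, chr19:12791486-12793315, plus strand) rose. JUNB binds the same sites as JUN but is a weaker activator and restrains cell cycle entry in several cell types. Libraries at 0 hours held 14.6, 15.9 and 15.0 CPM, those at 12 hours 27.1, 26.9 and 26.3 CPM, and those at 24 hours 25.0, 27.0 and 26.5 CPM. Both later groups stood above the 0 hour group and overlapped each other. The increase was 1.77-fold at 12 hours (log2 fold change 0.82, SE 0.055, edgeR adjusted p = 6.25e-14) and 1.73-fold at 24 hours (0.79, SE 0.056, edgeR adjusted p = 1.14e-13). JUNB lies inside the span of HOOK2, a gene on the other strand with which it shares 259 exon bases (14.2% of its exon length). HOOK2 had 572% of the reads of JUNB, and the strand setting of the counting was not given in the sources used here. HOOK2 fell by 0.22 at 12 hours (SE 0.038, edgeR adjusted p = 3.37e-05) and by 0.11 at 24 hours (SE 0.038, edgeR adjusted p = 0.0346), opposite in direction to JUNB.

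JUN (ENSG00000177606.8, chr1:58776845-58784048, minus strand), the founding JUN protein and the main target of the JNK kinases, moved downward. The values were 101.6, 104.0 and 105.0 CPM at 0 hours, 77.3, 77.6 and 73.9 CPM at 12 hours and 82.0, 83.2 and 88.4 CPM at 24 hours. No 2 of the 3 times overlapped, and 12 hours was lowest. JUN fell by 0.44 on the log2 scale at 12 hours (SE 0.037, edgeR adjusted p = 1.56e-11) and by 0.29 at 24 hours (SE 0.037, edgeR adjusted p = 1.1e-07), in both cases by less than the fold threshold. The difference of 0.15 between 12 and 24 hours passed the adjusted p (SE 0.037, edgeR adjusted p = 0.0105). It was 0.13 without the third 12 hour replicate (edgeR adjusted p = 0.0899) and 0.12 without the third 24 hour replicate (edgeR adjusted p = 0.108).

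JUND (ENSG00000130522.6, chr19:18279694-18281622, minus strand), a JUN protein tied to quiescence in many cells, was the most abundant subunit in every library. It was at 310.2, 321.4 and 319.0 CPM at 0 hours, 286.2, 270.2 and 276.6 CPM at 12 hours and 307.0, 300.4 and 315.7 CPM at 24 hours. The 12 hour libraries lay below the others, and those at 0 and 24 hours overlapped. JUND fell by 0.19 on the log2 scale at 12 hours (SE 0.032, edgeR adjusted p = 2.7e-05) and was 0.15 higher at 24 than at 12 hours (SE 0.032, edgeR adjusted p = 0.00276). At 24 hours its log2 difference from 0 hours was -0.042 (SE 0.032, edgeR adjusted p = 0.4).

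**Figure D2:**
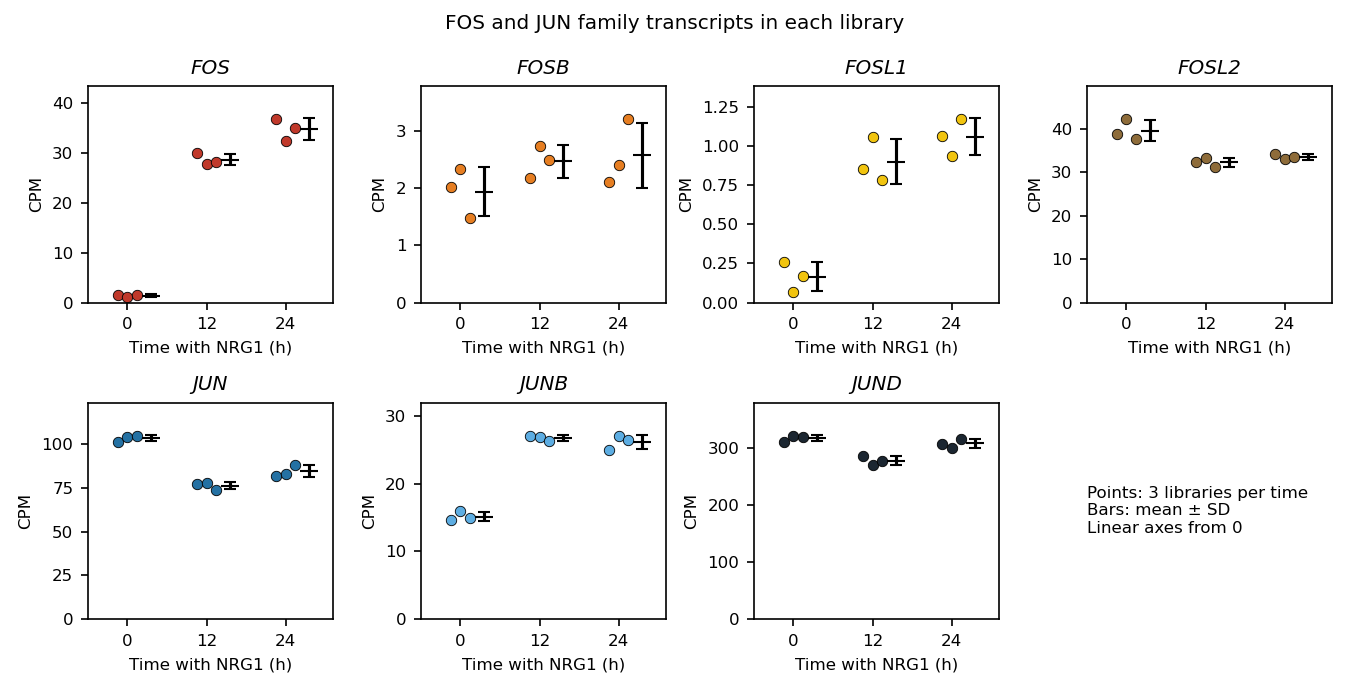
CPM of the 7 subunit genes (vertical axes, linear from 0, one panel per gene) against hours with NRG1, with a point per library and bars for mean ± SD of 3 replicates. FOS, FOSL1 and JUNB stand higher in all libraries at 12 and 24 hours than at 0 hours, FOSL2 and JUN stand lower, and FOSB overlaps.

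Counted together, 3 of the 7 subunits (FOS, FOSL1 and JUNB) passed both thresholds at 12 hours, all higher, where 0.992% of the tested genes were called higher, 1.38% lower and 2.37% in either direction. The same 3 subunits passed at 24 hours, where 1.53% of the tested genes were called higher, 1.78% lower and 3.31% in either direction. FOSL1 is in both counts although it entered the test only through its later libraries, and without it they are 2 of 6. With the adjusted p alone, 3 were higher and 3 lower at 12 hours (background 10.6% and 8.16%, or 18.7% together), and 3 were higher and 2 lower at 24 hours (background 11.6% and 9.48%, or 21.1% together). Between 12 and 24 hours 0 subunits passed both thresholds by edgeR or by DESeq2 (background 0.249% higher, 0.203% lower and 0.452% in either direction), and 3 (FOS, JUN and JUND) had an unadjusted edgeR p under 0.05, the same 3 that passed the adjusted p, all higher at 24 hours (background 3.03% higher and 6.08% in either direction). The comparisons with 0 hours share the same 0 hour libraries and are set side by side for that reason. The median log2 fold change of the 7 genes was 0.35 at 12 hours and 0.41 at 24 hours, beside -0.0084 and -0.0068 over all tested genes, and in both cases the median was that of FOSB.

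**Figure D3:**
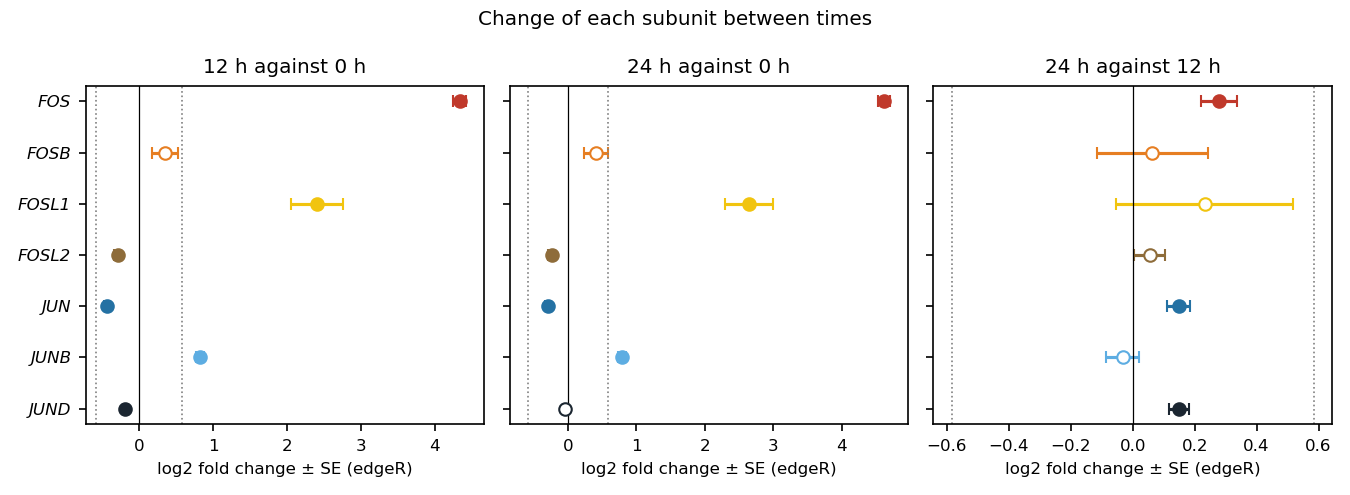
Fitted log2 fold change ± SE of each subunit (horizontal axes, which differ between panels) for 12 against 0 hours, 24 against 0 hours and 24 against 12 hours. Filled points passed the edgeR adjusted p of 0.05 and dotted lines mark a 1.5-fold change, which FOS, FOSL1 and JUNB exceed at 12 and 24 hours and no subunit exceeds between them.

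Levels of different genes were compared per kilobase of exon length. At 0 hours JUND was at 164.3 ± 3.05 CPM per kilobase, JUN at 28.6 ± 0.486, JUNB at 8.29 ± 0.374, FOSL2 at 5.52 ± 0.339, FOS at 0.442 ± 0.0765, FOSB at 0.349 ± 0.0780 and FOSL1 at 0.0880 ± 0.0502 (SD, n = 3 each). FOS and FOSB overlapped in this order, and all other neighbours were separate. At 12 hours FOS, at 8.99 ± 0.344 CPM per kilobase, had passed FOSL2, at 4.51 ± 0.148, to become the fourth most abundant subunit behind JUND, JUN and JUNB. At 24 hours the order was the same, with FOS at 10.9 ± 0.680 and FOSL2 at 4.69 ± 0.0933, and at both later times FOSL1 and FOSB overlapped at the bottom. Against all tested genes with a known length, the level per kilobase of FOS stood above 25.6% of them at 0 hours, 76.1% at 12 hours and 79.7% at 24 hours. JUND stayed above 98.9% or more at each time, and FOSL1 moved from above 7.55% to above 27.5% and 29.5%.

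The AP-1 pool, the sum of the 7 levels per kilobase, was JUND-dominated throughout. JUND made up 79.2% ± 0.103 of it at 0 hours, 74.2% ± 0.614 at 12 hours and 74.6% ± 0.185 at 24 hours. JUN made up 13.8% ± 0.139, 10.8% ± 0.339 and 10.9% ± 0.243, while JUNB went from 3.99% ± 0.118 to 7.55% ± 0.151 and 6.70% ± 0.327. FOS went from 0.213% ± 0.0404 to 4.63% ± 0.0671 and 5.10% ± 0.288, and FOSL2 from 2.66% ± 0.142 to 2.33% ± 0.102 and 2.19% ± 0.0590. FOSB and FOSL1 were at 0.262% or less at each time. These are shares of RNA, and protein was not measured in these libraries.

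The FOS family was a small part of the pool at each time. Its share was 3.08% ± 0.153 at 0 hours, 7.43% ± 0.129 at 12 hours and 7.77% ± 0.311 at 24 hours (SD, n = 3 each). Both later groups lay above 0 hours without overlap (two-sided exact permutation test, p = 0.1, the smallest that 3 against 3 libraries allow), and 12 and 24 hours overlapped (exact permutation p = 0.2). The pool was compared in 27 such tests, none of which can give a p below 0.1. JUN family transcripts outnumbered those of the FOS family by 31.5 ± 1.66 to 1 at 0 hours, 12.5 ± 0.232 to 1 at 12 hours and 11.9 ± 0.507 to 1 at 24 hours.

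Per kilobase, the most abundant member of the FOS family was not the same before and after NRG1. FOSL2 held 86.2% ± 1.79 of the family at 0 hours and FOS 6.95% ± 1.41. At 12 hours FOS held 62.3% ± 1.69 and FOSL2 31.3% ± 0.862, and at 24 hours FOS held 65.6% ± 1.07 and FOSL2 28.2% ± 0.891. There were 0.0808 ± 0.0177 FOS transcripts per FOSL2 transcript at 0 hours, 1.99 ± 0.107 at 12 hours and 2.33 ± 0.1005 at 24 hours. The ranges of the FOS share did not overlap between any of the times (exact permutation p = 0.1 for each). The order at 12 hours depends on the division by length, and so does the separation of FOS and FOSL2 at 24 hours. In CPM, FOSL2 was still the larger at 12 hours, with 32.3 ± 1.06 against 28.6 ± 1.10 for FOS. The libraries of the 2 genes overlapped in CPM at 24 hours, with 33.6 ± 0.668 for FOSL2 and 34.8 ± 2.17 for FOS. In CPM, FOS was 44.5% of the family at 12 hours and 48.3% at 24 hours.

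The summed level of the FOS family was higher and that of the JUN family lower at 12 hours than at 0 hours. The FOS family was at 6.40 ± 0.324, 14.4 ± 0.322 and 16.6 ± 0.806 CPM per kilobase at the 3 times, all without overlap (exact permutation p = 0.1 for each). The JUN family was at 201.1 ± 3.79, 179.6 ± 4.36 and 197.1 ± 4.80 CPM per kilobase, lower at 12 hours than at 0 hours without overlap (exact permutation p = 0.1) and overlapping 0 hours at 24 hours (exact permutation p = 0.3). The whole pool differed by -6.50% at 12 hours and 3.00% at 24 hours from 0 hours, the second with overlap (exact permutation p = 0.2). Within the JUN family, JUNB per JUN transcript was 0.290 ± 0.0114 at 0 hours, 0.696 ± 0.00882 at 12 hours and 0.614 ± 0.0258 at 24 hours, with no overlap between times (exact permutation p = 0.1 for each).

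**Figure D4:**
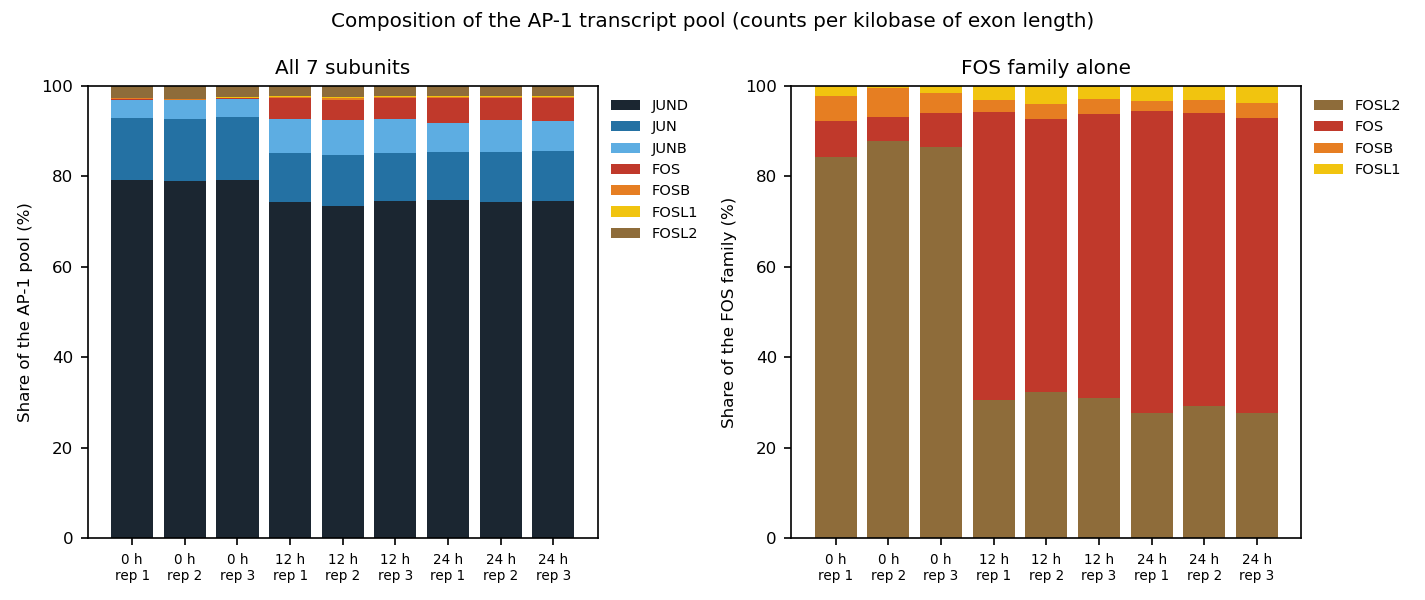
Stacked shares in percent (vertical axes, 0 to 100) of the 7 subunits in the AP-1 pool and of the 4 FOS family members in that family, one bar per library, in counts per kilobase of exon length. JUND fills 73.5% to 79.3% of each bar on the first panel, and FOS is a larger part of the FOS family than FOSL2 in all 6 libraries with NRG1.

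Genes with the time course most like that of each called subunit were sought among the 11395 tested genes whose mean log2 CPM reached 2, as the smallest distance between the pairs of log2 fold changes at 12 and 24 hours over the 3 times. For FOS these were DUSP6 (distance 0.103), a phosphatase that switches off ERK, ETV5 (0.718), an ETS transcription factor, and EGR1 (0.815), an immediate-early zinc finger factor. DUSP6 had log2 fold changes of 4.25 and 4.67, ETV5 of 4.78 and 5.18, and EGR1 of 5.02 and 5.07. For FOSL1 the nearest were CADPS2 (0.302), a regulator of vesicle release, MAFF (0.493) and MMP10 (0.911). For JUNB they were PNMA1 (0.0469), OSGIN1 (0.0597), an oxidative stress response gene, and DUSP4 (0.0722), a nuclear phosphatase of ERK and JNK, with DUSP4 at 57.2 ± 1.38, 105.2 ± 2.89 and 101.9 ± 3.56 CPM.

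Some other basic leucine zipper proteins pair with FOS and JUN. Of the 16 genes of other such families examined, CREB1, CREM and ATF1 among them, 15 were tested. At both 12 and 24 hours 1 was called higher (0.992% and 1.53% of all tested genes). On the adjusted p alone, 3 were higher and 5 lower at 12 hours (10.6% and 8.16% of all tested genes). At 24 hours 3 were higher and 3 lower (11.6% and 9.48%). The median log2 fold change of the 15 genes was -0.037 and 0.068. MAFF, a small MAF protein without an activation domain, went from 5.24 ± 0.641 CPM to 24.0 ± 0.225 and 24.1 ± 0.904 CPM (log2 fold changes 2.19 and 2.20, SE 0.072 for both, edgeR adjusted p = 3.56e-23 and 2.78e-23). The other small MAF genes, MAFK (0.38 and 0.54) and MAFG (0.25 and 0.27), passed the adjusted p at both times below the fold threshold. MAF fell by 0.50 and 0.40, also below the fold threshold (edgeR adjusted p = 0.00153 and 0.00877). ATF3, itself a stress-induced partner of JUN, was at 87.4 ± 3.15 CPM at 0 hours and 80.7 ± 1.92 CPM at 12 hours, a log2 fold change of -0.12 (edgeR adjusted p = 0.0225).

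The 13 tested kinases of the ERK and JNK cascades, which phosphorylate FOS and JUN proteins or their regulators, gave 1 call at 12 hours and 0 at 24 hours by edgeR and by DESeq2. By edgeR 2.37% and 3.31% of all tested genes were called in either direction. An unadjusted edgeR p under 0.05 was seen for 6 kinases at each time. The share of all tested genes under it was not computed, here or for the lists below. On the adjusted p alone, 1 kinase was higher and 3 lower at 12 hours (10.6% and 8.16% of all tested genes). At 24 hours 1 was higher and 2 lower (11.6% and 9.48%). The median log2 fold change was -0.039 and 0.0096. The call was MAPK10, the JNK gene best known from neurons, at 2.08 ± 0.329 CPM at 0 hours and 1.04 ± 0.114 CPM at 12 hours (log2 fold change -0.99, SE 0.22, edgeR adjusted p = 0.00111), and its value at 24 hours was -0.44 (edgeR adjusted p = 0.15). RPS6KA3, which encodes the ERK-activated kinase RSK2, was at 133.6 ± 4.17 CPM at 0 hours and 94.6 ± 1.46 CPM at 24 hours, a fall of 0.50 that passed the adjusted p only (edgeR adjusted p = 7.56e-14).

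Of 11 factors that act on FOS and JUN promoters, 10 were tested and 0 were called at either time by edgeR or by DESeq2. Over all tested genes edgeR called 2.37% at 12 hours and 3.31% at 24 hours in either direction. Of the 10 factors, 6 had an unadjusted edgeR p under 0.05 at each time. The median log2 fold change was -0.043 at 12 hours and -0.025 at 24 hours. On the adjusted p alone, 3 were higher and 3 lower at 12 hours (10.6% and 8.16% of all tested genes), and 2 were higher and 3 lower at 24 hours (11.6% and 9.48%). SRF, the factor that binds the serum response element of FOS, had log2 fold changes of 0.14 and 0.19 (edgeR adjusted p = 0.0214 and 0.0015), with overlapping libraries at 12 hours. Its ETS partners moved in both directions, ELK3 by 0.39 and 0.44, ELK1 by 0.17 and 0.085 and ELK4 by -0.22 and -0.20. ELK1 passed the adjusted p at 12 hours (edgeR adjusted p = 0.00152) but not at 24 hours (edgeR adjusted p = 0.143).

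The 12 genes of FOS and JUN mRNA decay and protein turnover were all tested, with a median log2 fold change of 0.069 at 12 hours and 0.055 at 24 hours. There was 1 call at 12 hours and 0 at 24 hours by edgeR and by DESeq2. By edgeR 2.37% and 3.31% of all tested genes were called in either direction. An unadjusted edgeR p under 0.05 was found for 6 of the 12 at 12 hours and for 5 at 24 hours. On the adjusted p alone, 4 were higher and 1 lower at 12 hours (10.6% and 8.16% of all tested genes). At 24 hours 3 were higher and 1 lower (11.6% and 9.48%). The call was DET1, part of a ubiquitin ligase of JUN, with 98, 58 and 65 reads at 0 hours and 26, 35 and 42 at 12 hours (log2 fold change -0.89, SE 0.27, edgeR adjusted p = 0.0172). The call was lost without the first 0 hour replicate (-0.66, edgeR adjusted p = 0.144), without the first 12 hour replicate (-0.69, edgeR adjusted p = 0.132) and without the second 12 hour replicate (-0.88, edgeR adjusted p = 0.0563). ZFP36 and ZFP36L1, which bind AU-rich elements and speed the decay of FOS mRNA, passed the adjusted p below the fold threshold. ZFP36 rose by 0.36 and 0.52 on the log2 scale and ZFP36L1 by 0.36 and 0.49.

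Textbook AP-1 targets were only partly measurable in LNCaP cells. Of 30 listed genes 15 were tested, 12 had 4 to 47 reads over the 9 libraries together and were left out by the filter, and 3 (PLAU, IL6 and EREG) were not analysed here. At 12 hours 4 were called higher (0.992% of all tested genes), and at 24 hours 3 were called higher (1.53%) and 1 lower (1.78%), with a median log2 fold change of 0.17 and 0.095. At 12 hours 2 calls were left when at least 10 counts were required in every library, and 2 when the change was tested against 1.5-fold, which also left 2 at 24 hours. MMP10, a matrix metalloprotease, went from 2.76 ± 0.0846 CPM to 10.4 ± 0.156 and 10.1 ± 0.186 CPM (log2 fold changes 1.92 and 1.87, edgeR adjusted p = 3.4e-18 and 4.18e-18). HBEGF, a ligand of EGFR, went from 6.86 ± 0.293 CPM to 10.9 ± 0.466 and 13.5 ± 1.09 CPM (0.66 and 0.98, edgeR adjusted p = 1.04e-07 and 6.22e-12). CCND1 and ODC1, abundant targets linked to growth, passed the adjusted p below the fold threshold, CCND1 at 0.26 and 0.32 and ODC1 at 0.29 and 0.22. Other targets passed it downward, also below the fold threshold. These were DUSP1 (-0.19) and GADD45A (-0.20) at 12 hours, and VIM (-0.31) and PHLDA1 (-0.50) at 24 hours. On the adjusted p alone, 6 targets were higher and 2 lower at 12 hours (10.6% and 8.16% of all tested genes). At 24 hours 5 were higher and 3 lower (11.6% and 9.48%).

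The other calls among targets rested on few reads or on 1 time. TIMP1, an inhibitor of metalloproteases, had 0, 3 and 0 reads at 0 hours, 13, 22 and 27 at 12 hours and 2, 10 and 8 at 24 hours. It reached the filter on low counts in its 3 libraries of 12 hours and in no other, so its call at 12 hours is not independent of the filter. Its call at 24 hours, where the libraries overlapped those of 0 hours, was lost without the first or the third 0 hour replicate and without the second or the third 24 hour replicate (edgeR adjusted p of 0.0818 to 0.136). TGFB1, a secreted growth factor, had 14, 4 and 11 reads at 0 hours, 33, 27 and 28 at 12 hours and 16, 15 and 4 at 24 hours, with a call at 12 hours (log2 fold change 1.79, SE 0.47, edgeR adjusted p = 0.00576) and none at 24 hours (0.50, edgeR adjusted p = 0.578). MT2A, a metallothionein, was at 161 ± 15.1 CPM at 0 hours and 68.1 ± 11.3 CPM at 24 hours, a fall of 1.24 on the log2 scale (SE 0.13, edgeR adjusted p = 0.000742). Its log2 fold change at 12 hours was -0.32 (edgeR adjusted p = 0.151).

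**Figure D5:**
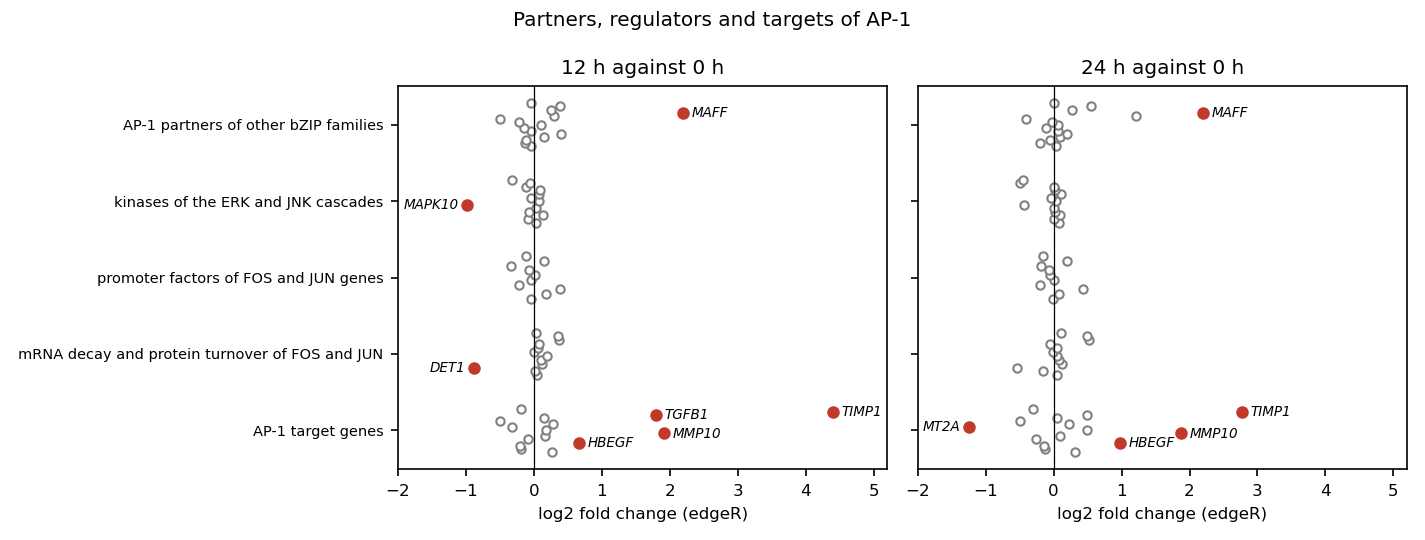
Fitted log2 fold change (horizontal axes) of the tested genes examined in 5 lists at 12 and 24 hours against 0 hours, one point per gene, with filled and named points for calls at both thresholds. MAFF and MMP10 lie near 2 at both times, and the values of TIMP1 rest on 3 reads at 0 hours.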

How the data were processed

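RNA-Seq counts of 9 LNCaP libraries were used, with groups and replicate numbers from the sample titles. Per the study's methods, mRNA libraries were sequenced as pairs, trimmed with Cutadapt, aligned to GRCh38.p13 with STAR and counted per gene with featureCounts, and 1 LNCaP replicate at time 0 was excluded. The methods do not name its treatment, but the captions state 3 replicates for NRG1 and a range for ASPN, the other treatment. All 3 of the 0 hour libraries were used here. The authors deposited whole-number counts per gene and library, without normalization or pooling. Strand setting and handling of multimapping reads are not given in the sources used here. Of the other columns of the table, 14 were empty.

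Genes were filtered with filterByExpr (minimum count 10) and libraries scaled by TMM. edgeR 4.0.16 in R 4.3.3 (robust quasi-likelihood, all 9 libraries, no covariate) tested 19250 genes, with Benjamini-Hochberg adjustment over all of them. The method was tested on simulated counts. The replicates were plated in triplicate, so p-values measure the spread between cultures of 1 line. No pair of replicates agreed within sampling noise (chi-square per degree of freedom 3.23 to 9.59). Reads carried no molecular identifiers, so precision from depth covers counting error only. Pool shares used GENCODE exon union lengths, and pool measures were compared by two-sided exact permutation tests. Promoters were RefSeq sequences (GRCh38.p14), with 6 of 7 genes matched. Near-identical transcripts, sought with BLAST 2.17.0 at 95% identity over 150 bases, were found only for JUNB and HOOK2, over their shared 259 bases.

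All subunits are named. Of each list, genes called in any comparison are named (at most 5), other genes for their role, and for each called subunit the 3 genes most alike. Some genes of the lists are not reported here and were left out of their counts and medians. The members and lists were chosen with earlier results of these data known. Alternatives were DESeq2 1.42.0, other scalings, filters and thresholds, only the 6 libraries compared, a replicate block, other lengths, the pool without JUND and each library left out.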

Additional observations from a re-analysis of the deposited data

Results flagged for a closer look

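Among the genes named, 8 had effects at 12 and 24 hours that differed from each other by a direct edgeR test of 24 against 12 hours, adjusted over all tested genes. For FOS the difference was 0.28 on the log2 scale (edgeR adjusted p = 0.00199), for JUN 0.15 (edgeR adjusted p = 0.0105) and for JUND 0.15 (edgeR adjusted p = 0.00276), each with no overlap between the 3 libraries of either time. FOS was above its 0 hour level at both times, JUN was below it at both times, and JUND was below it at 12 hours only among tests that passed. Of the genes with a time course like that of a subunit, DUSP6 was higher at 24 hours by 0.42 (edgeR adjusted p = 0.00268), ETV5 by 0.40 (edgeR adjusted p = 0.00208) and CADPS2 by 0.45 (edgeR adjusted p = 1.36e-10). Among AP-1 targets HBEGF was higher by 0.31 (edgeR adjusted p = 0.00971), which passed no more without the first 12 hour replicate (edgeR adjusted p = 0.0707), the first 24 hour replicate (edgeR adjusted p = 0.0563) or the third 24 hour replicate (edgeR adjusted p = 0.071). MT2A differed by -0.92 (edgeR adjusted p = 0.0117), and by -0.89 without the third 24 hour replicate (edgeR adjusted p = 0.0577). Other genes named above but outside this set also passed the test. These were RPS6KA3 (-0.43, edgeR adjusted p = 4.1e-11), SLC45A3 (-0.35, edgeR adjusted p = 9.22e-09) and KLK3 (-0.17, edgeR adjusted p = 0.00105). Upward, MAFK (0.17, edgeR adjusted p = 0.00697) and ZFP36L1 (0.13, edgeR adjusted p = 0.0226) passed it.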

How the results depend on the processing

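The number of subunits past both thresholds was 3, 3 and 0 in the 3 comparisons in every fit with a library left out, and 6, 5 and 3 with the adjusted p alone. It was 2, 2 and 0 at a fold of 2, where JUNB was no longer past the threshold, and with at least 10 counts in every library, where FOSL1 was not tested. Log2 fold changes of FOS stayed between 4.21 and 4.46 at 12 hours and between 4.49 and 4.73 at 24 hours over 17 alternatives. Of the comparisons of the 7 genes under alternatives, 341 kept direction and side of the adjusted p and 10 lost the adjusted p, 8 of them when the change was tested against 1.5-fold. Differences between 24 and 12 hours near 0 changed sign: FOSB over -0.13 to 0.18 and -0.023 without the first 12 hour replicate, MAFF to -0.0010 and OSGIN1 to -0.0022 with all genes of at least 1 count, and with a library left out MAFF over -0.024 to 0.030 and OSGIN1 over -0.025 to 0.024. The FOS family share at 0, 12 and 24 hours was 3.39%, 9.72% and 10.3% with the longest GENCODE transcript (chosen after seeing the data), 8.99%, 14.5% and 14.7% without division by length, and 14.8%, 28.8% and 30.6% without JUND. With a library left out it was 3.03% to 3.17%, 7.36% to 7.48% and 7.60% to 7.90%. FOS in the FOS family was 9.39%, 69.4% and 72.3% with the longest transcript, 3.298%, 44.5% and 48.3% without length, and 6.48% to 7.76%, 61.7% to 63.3% and 64.998% to 66.0% with a library left out. The longest RefSeq transcript was not run. Over all genes, calls at 12 hours were 457, against 3605 with the adjusted p alone, 179 at a fold of 2 and 81 tested against 1.5-fold. At 24 hours they were 638, 4065, 266 and 153, and between times 87, 1171, 34 and 5, or 55 without the second 12 hour replicate. Replicate numbers did not pair the samples (deviations of same-numbered libraries correlated at -0.090 to 0.11, others at -0.16 to 0.19). A replicate block changed 0 calls of subunits (FOS 4.34 and 4.62). Under it MT2A at 12 hours passed the adjusted p (-0.32, edgeR adjusted p = 0.00501) but not the fold threshold, as it did with only the 6 libraries compared (edgeR adjusted p = 0.0404) and without the first 24 hour replicate (edgeR adjusted p = 0.0437). The cause of these shifts was not tested.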
